A study of Mus musculus with 10 samples.

Results

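Glucose breakdown and the handling of its product pyruvate were followed through 35 genes in mouse B cells, by step from glucose uptake to lactate export and mitochondrial pyruvate entry. The 35 genes were chosen by name, as genes of these steps, with no threshold on their values, and all 35 were found among the 17658 genes of the deposited table. RNA was sequenced from B cells of 10-week-old C57BL/6 mice, enriched from spleen and lymph node by magnetic removal of other cells. The genotypes were wild type (Nr4a1+/+) and Nr4a1-/-, which carries no normal copy of Nr4a1, the gene of the orphan nuclear receptor Nur77. How the allele was made is not given in the sources used here. One group of each genotype received no agent (1 library each, letter A). The other had 2 hours of anti-IgM at 10 µg/mL, which crosslinks the antigen receptor of B cells (4 libraries each, letters A to D). No culture time is given for the libraries without agent, so effects of anti-IgM and of time in culture cannot be told apart. Changes with anti-IgM below are differences between these groups. Whether each letter is a separate mouse is not given in the labels, so p-values measure the spread between these libraries, which may be partly technical.

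Glycolysis turns glucose into pyruvate in the cytosol. Transporters of the Slc2a family admit glucose, hexokinase traps it as glucose 6-phosphate, and phosphofructokinase commits it to breakdown. Pyruvate is then either reduced to lactate, which leaves the cell through monocarboxylate transporters, or carried into mitochondria and oxidised by pyruvate dehydrogenase, which Pdk kinases switch off. Resting B cells use little glucose, and engagement of the antigen receptor is known to raise glucose uptake and lactate output, with Myc and Hif1a as well-studied transcriptional regulators of these genes.

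Levels are the authors' FPKM, fragments scaled to transcript length and library size, which can therefore be compared between genes. The absolute depth is unknown, and relative depth read from the steps of 33 low genes ran from 0.900 in the wild-type unstimulated library to 1.09 in wild-type stimulated library B. Summed over genes, FPKM came to 674961 without stimulation in wild type and 595500 under the knockout label, against 557214 to 571784 after anti-IgM. Nr4a1 itself read 126.4 and 125.6 FPKM without stimulation, 744 to 856 FPKM in wild type after anti-IgM and 660.2 to 760.0 FPKM in the libraries labelled knockout. The targeted gene's value therefore did not separate the genotypes by presence, and the part of the transcript changed by the allele is not given in the sources used here, so genotype is stated below as labelled. Of the B cell genes, Cd79a read 1112 and 1229 FPKM without stimulation and 469 to 529 FPKM after it, and Ms4a1 555 and 405 FPKM before and 215 to 236 FPKM after. Marker lists of other cells summed to at most 2.5 FPKM for NK cells, 69.0 for T cells, 123 for erythroid cells and 349.6 for myeloid cells in any library.

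The genes above 100 FPKM in every library numbered 5: the aldolase Aldoa, Gapdh, the enolase Eno1, the pyruvate kinase Pkm and the lactate dehydrogenase Ldha. Ldha was the highest of all 35 in every library, at 230.7 and 227 FPKM without stimulation and 567 to 593 FPKM after it. At the other end, 5 genes averaged under 1 FPKM over the 10 libraries and were not tested. These were Hk3 (0.44 to 0.82 FPKM), the muscle-type phosphofructokinase Pfkm (0.07 to 0.63), Ldhb (0 to 0.15, listed at 0 in both unstimulated libraries), the lactate exporter Slc16a3 (0.08 to 0.98) and the kinase Pdk2, which stood at 2.18 and 3.14 FPKM without stimulation and 0.31 to 0.67 FPKM after it. Together the 35 genes made up 0.239% and 0.275% of the summed FPKM in the unstimulated libraries. After anti-IgM they made up 0.389% to 0.398% in wild type and 0.367% to 0.380% in the libraries labelled knockout, ranges that do not overlap.

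**Figure D1:**
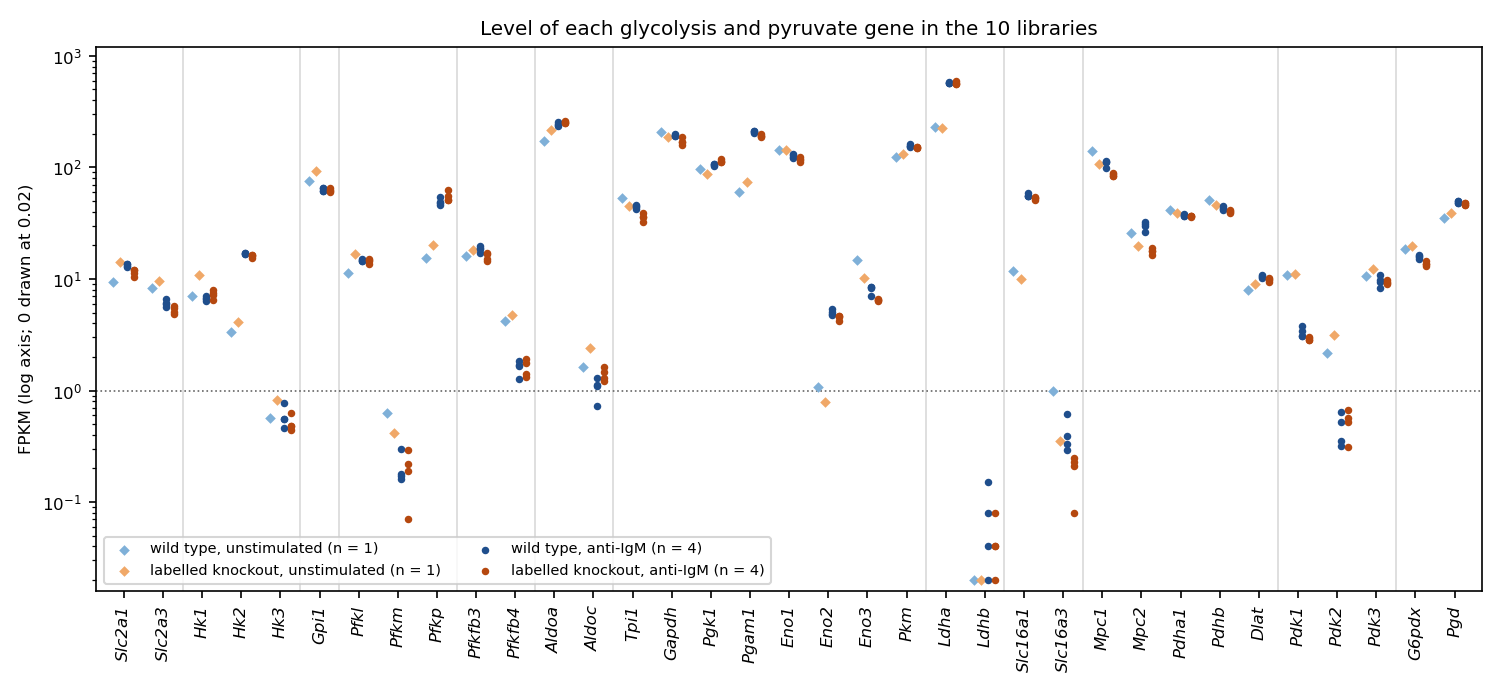
FPKM (log axis, 0 drawn at 0.02) of the 35 genes in the 10 libraries, ordered by step with grey lines between steps; diamonds are the single unstimulated libraries, circles the 4 stimulated libraries of each label, and the dotted line marks 1 FPKM. Ldha is highest in every library at up to 593 FPKM, and Hk2, Pfkp, Pgam1, Eno2, Ldha and Slc16a1 stand higher in all 8 stimulated libraries than in both unstimulated ones.

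The first comparison asked which steps change at the transcript level when the antigen receptor is engaged. After anti-IgM, single genes at separate reactions were higher. These were the hexokinase Hk2, the phosphofructokinase Pfkp, the mutase Pgam1, the neuron-type enolase Eno2, Ldha and the lactate exporter Slc16a1. Pfkfb4, whose product sets a sugar phosphate signal that drives phosphofructokinase, and the pyruvate dehydrogenase kinase Pdk1 were lower. Changes are on the scale of log2(FPKM + 1), which understates low genes. A call needed a limma adjusted p under 0.05, over all 10225 genes tested, and a change of 1 or more in either direction. With 1 unstimulated library per label, the SE and p-values of this comparison rest mostly on the spread of the stimulated libraries. The spread between unstimulated libraries of the same label could not be measured. Of the 30 genes tested, 6 were called higher, beside 7.94% of all genes, and 2 were called lower, beside 12.4%. By adjusted p alone 11 were higher and 14 lower, beside 31.2% and 47.7% of all genes, so passing that test alone sets a gene apart from few others. All 8 stimulated libraries lay above both unstimulated ones for 11 of the 30, beside 28.6% of all genes, and below both for 9, beside 44.3%. The median change of the 30 was -0.05 and that of all genes -0.17 on the log2 scale. Median-of-ratios scaling, which sets each library by the median ratio of its genes, moved the median of all genes to 0.03 and that of the 30 to 0.18, a shift of over 0.1 that applies to every change given here. Under it the same fit called 1155 genes higher and 801 lower in all, against 812 and 1266 on the deposited scale, and, of the 30, 6 higher and 1 lower, beside 11.3% and 7.83% of all genes. In these enriched bulk samples, a change in the share of a cell type and a change of RNA per cell cannot be told apart. Marker lists moved with anti-IgM too: the myeloid list summed to 349.6 and 305 FPKM before and 108 to 245 FPKM after, the erythroid list to 123 and 40.2 FPKM before and 7.84 to 66.8 FPKM after, and the platelet list to 25.9 and 12.9 FPKM before and 4.09 to 11.5 FPKM after. The plasma cell list went from 201 and 205 FPKM to between 1046 and 1191 FPKM, of which Irf4 made 124 and 115 FPKM before and 969.6 to 1113 FPKM after. The B cell list summed to 4599 and 4401 FPKM before and 2013 to 2132 FPKM after. The T cell list went from 19.3 and 26.4 FPKM to between 46.0 and 69.0 FPKM, of which Lck made 17.5 and 25.0 FPKM before and 43.7 to 66.9 FPKM after. The part of these lists in the members' changes was not tested.

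**Figure D2:**
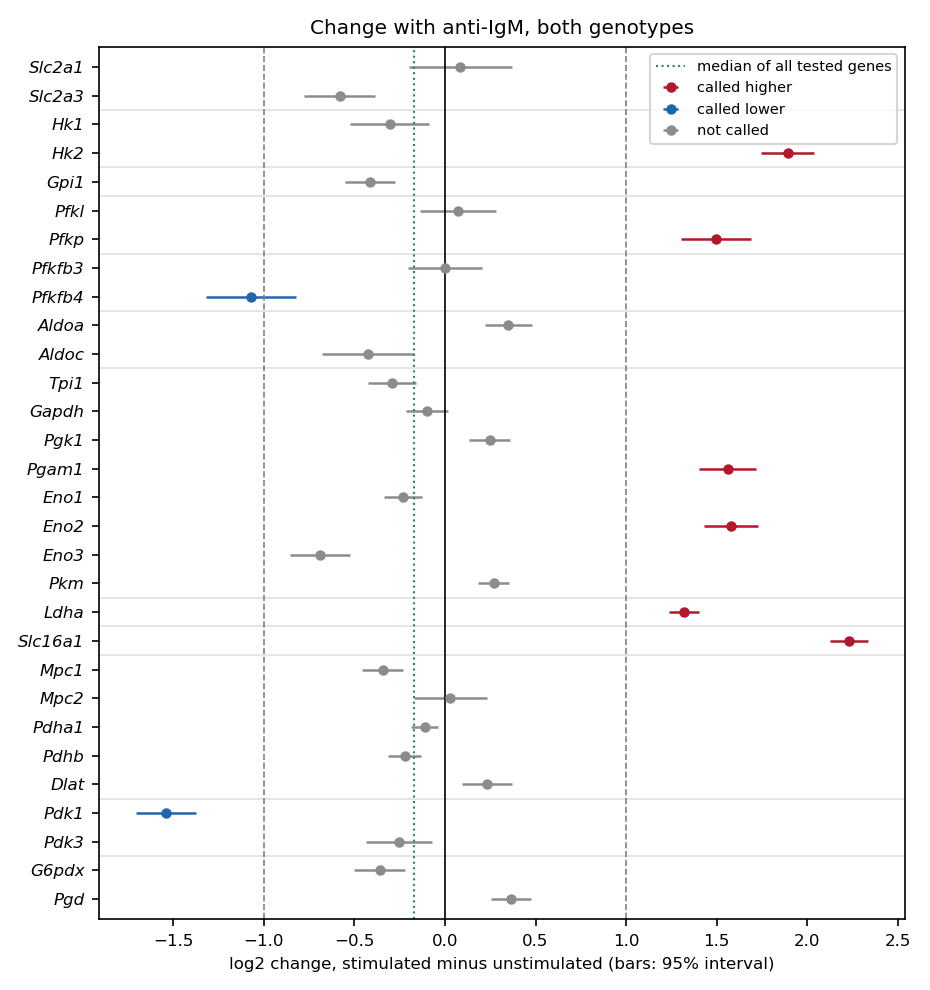
log2 change on the log2(FPKM + 1) scale of the 30 tested genes, stimulated minus unstimulated over 10 libraries with genotype as a term, with 95% intervals; dashed lines mark a change of 1 in size and the green dotted line the median of all genes. The 6 genes called higher lie between 1.32 and 2.23, Pfkfb4 and Pdk1 lie at -1.07 and -1.54, and the other 22 lie between -0.69 and 0.36.

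At glucose uptake neither Slc2a1 nor Slc2a3 was called. Slc2a1 stood at 9.40 FPKM without stimulation in wild type and 14.1 FPKM under the knockout label (the order of all unstimulated pairs given here). After anti-IgM it read 13.1, 13.7, 13.6 and 12.7 FPKM in wild type and 12.02, 11.4, 11.98 and 10.4 FPKM in the libraries labelled knockout. The stimulated wild-type libraries were thus above their unstimulated library and those labelled knockout were below theirs. The pooled change was 0.09 ± 0.13 (log2 ± SE, adjusted p = 0.554), and -0.29 without the wild-type unstimulated library. Slc2a3, the high-affinity transporter, read 8.34 and 9.66 FPKM without stimulation and 4.89 to 6.58 FPKM after it, lower in all 8 stimulated libraries, with a change of -0.58 that passed the adjusted p but not the size. Within the summed FPKM of the pair, the share of Slc2a1 was 53.0% and 59.4% without stimulation and 66.5% to 71.0% after it.

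Hexokinase traps glucose in the cell, and here the leading isoenzyme exchanged. Hk2, the inducible form, read 3.33 and 4.10 FPKM without stimulation, 17.2, 16.6, 17.1 and 16.7 FPKM in wild-type libraries A to D after it, and 16.4, 16.0, 15.3 and 16.3 FPKM in those labelled knockout. The mean of the stimulated libraries was 5.08 times the unstimulated value in wild type and 3.90 times under the knockout label, and the joint change was 1.89 ± 0.07 (log2 ± SE, adjusted p = 5.96e-10). Hk1, the constitutive form, was at 7.10 and 10.9 FPKM before and 6.29 to 7.96 FPKM after, overlapping, with a change of -0.30. Hk1 therefore held 64.5% and 68.9% of hexokinase FPKM in the unstimulated libraries, and Hk2 held 65.5% to 70.4% in the stimulated ones. Gpi1, the isomerase of the next step, read 75.9 and 92.7 FPKM before and 59.8 to 66.0 FPKM after.

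Phosphofructokinase is the committing step. Pfkp, its platelet-type subunit, read 15.5 and 20.3 FPKM without stimulation, 48.6, 54.2, 47.6 and 46.2 FPKM in stimulated wild type, and 55.9, 63.3, 50.7 and 50.6 FPKM in the libraries labelled knockout. All 8 stimulated libraries were above both unstimulated ones, by 3.17 and 2.72 times in the means, with a log2 change of 1.496 ± 0.09 (adjusted p = 3.12e-08). Library B was the highest of each label for Pfkp, and the myeloid gene Lyz2 was also highest there, at 115 FPKM in wild type and 82.6 FPKM under the knockout label against 15.8 to 53.0 FPKM in the other 6 stimulated libraries. In the unstimulated libraries, where Pfkp was lowest, Lyz2 read 56.45 and 71.81 FPKM. Without library B of either label in turn, Pfkp remained called, and the part of myeloid RNA in its level was not tested. Pfkl, the liver-type subunit, stood at 11.4 and 16.7 FPKM before and 13.5 to 15.2 FPKM after. The share of Pfkp in the family was 56.3% and 54.3% without stimulation and 75.9% to 82.2% with it.

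Of the enzymes that make and remove the sugar phosphate activator of phosphofructokinase, Pfkfb4 was called lower and Pfkfb3 was not called. Pfkfb4 read 4.21 and 4.75 FPKM without stimulation and 1.27 to 1.92 FPKM in the 8 stimulated libraries, which all lay below, with a change of -1.07 ± 0.11 (log2 ± SE, adjusted p = 4.54e-06). It lies just past the size threshold and was called in 14 of the 22 other fits in which it could be tested, with a change of -0.995 without the unstimulated library labelled knockout and -0.89 under median-of-ratios scaling. Pfkfb3 was at 16.0 and 18.3 FPKM before and 14.4 to 19.7 FPKM after, with a 95% interval of its log2 change from -0.20 to 0.20, and its share of the pair went from 79.2% and 79.4% to between 89.8% and 93.0%. Pfkfb2, a relative that is not a member and not in this share, read 5.04 and 6.02 FPKM before and 1.91 to 3.03 FPKM after. Its change of -0.95 passed the adjusted p but not the size. For aldolase, which splits the sugar into trioses, Aldoa read 172.6 and 218 FPKM before and 233 to 259 FPKM after, a change of 0.35. Aldoc stayed at 0.72 to 2.38 FPKM in all libraries, at most 1.08% of aldolase FPKM.

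From triose phosphates to pyruvate, 2 of 8 genes were called, both higher, beside 7.94% higher and 12.4% lower over all genes. Pgam1, which moves the phosphate of phosphoglycerate, read 60.7 and 74.5 FPKM without stimulation, 209.8, 204, 213 and 207 FPKM in stimulated wild type, and 187.9, 190.5, 199 and 192 FPKM under the knockout label, with a log2 change of 1.56 ± 0.07 (adjusted p = 4.48e-09). Eno2 was at 1.07 and 0.79 FPKM before and 4.17 to 5.35 FPKM after, and its change of 1.58 ± 0.07 is understated by the pseudocount, since the linear ratios were 4.68 in wild type and 5.70 under the knockout label. Eno2 still made up only 3.07% to 3.86% of enolase FPKM, of which Eno1 held 90.1% to 92.9% in all 10 libraries. The remaining members of this stretch moved by less than the size rule.

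Pkm, which makes pyruvate, read 125 and 130.8 FPKM before and 149 to 163 FPKM after, a change of 0.27. Pgk1, which forms ATP at the step after Gapdh, changed by 0.25. The triose isomerase Tpi1 changed by -0.29, Eno1 by -0.23 and Eno3 by -0.69, each with an adjusted p under 0.05 but not the size. Gapdh, often used as a reference gene, was at 205.8 and 185.6 FPKM before and 159.2 to 199 FPKM after, a change of -0.10 (adjusted p = 0.101) whose sign turned to 0.06 with equal library sums (TPM) and 0.14 with median-of-ratios scaling. Eno1 turned to 0.0035 under the latter.

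The step from pyruvate to lactate and out of the cell had the highest level and the largest change of the 30. Ldha read 230.7 and 227 FPKM without stimulation, 575, 570.2, 586 and 567 FPKM in stimulated wild type and 557, 561, 593 and 570.2 FPKM under the knockout label, a rise of 1.32 ± 0.04 (log2 ± SE, adjusted p = 1.56e-10). Slc16a1, the monocarboxylate transporter MCT1, read 11.9 and 9.93 FPKM before, 55.4, 55.3, 59.3 and 55.7 FPKM in stimulated wild type and 50.6, 53.2, 53.5 and 54.5 FPKM under the knockout label. Its change of 2.23 ± 0.05 (adjusted p = 3.40e-11) corresponds to ratios of 4.74 in wild type and 5.33 under the knockout label. Ldha made up 99.97% or more of the lactate dehydrogenase pair in every library, and Slc16a1 held 98.9% to 99.9% of the 2 exporters after anti-IgM against 92.4% and 96.6% before.

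Pyruvate entry into mitochondria showed no called change. The carrier subunit Mpc1 was at 141 and 106.9 FPKM without stimulation and 83.0 to 114 FPKM after, and its partner Mpc2 at 25.7 and 19.8 FPKM before and 16.3 to 32.7 FPKM after. Of the pyruvate dehydrogenase genes, the subunits of the first enzyme Pdha1 and Pdhb read 36.2 to 41.2 FPKM and 39.0 to 50.8 FPKM over all libraries, and the acetyltransferase Dlat 7.96 to 10.8 FPKM. The signs of Pdha1 (-0.11) and Pdhb (-0.22) turned to 0.12 and 0.0088 under median-of-ratios scaling, and Pdha1 also to 0.05 under TPM. Of the kinases that inhibit this complex, 1 of 2 tested was called lower, beside 12.4% of all genes. Pdk1 fell from 10.9 and 11.1 FPKM to 3.11 to 3.75 FPKM in wild type and 2.83 to 3.03 FPKM under the knockout label, a change of -1.54 ± 0.08 (adjusted p = 7.58e-09). Pdk3 read 10.7 and 12.2 FPKM before and 8.32 to 10.9 FPKM after, and held 68.3% to 75.0% of the kinase FPKM after anti-IgM against 45.1% and 46.2% before. Pdk2, too low on average to be tested in the main fit, changed by -1.29 when no filter was applied (adjusted p = 7.45e-06).

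**Figure D3:**
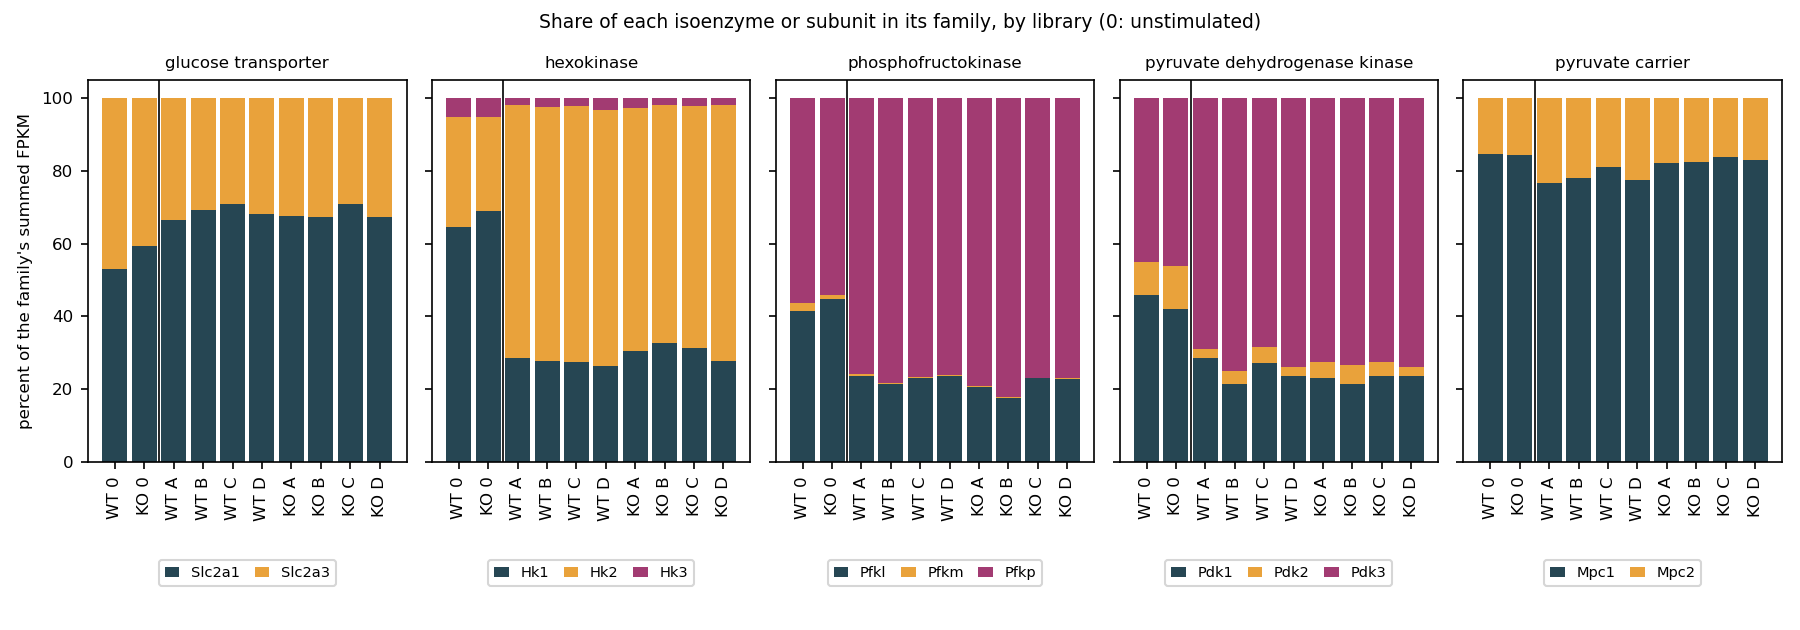
Percent of a family's summed FPKM held by each member in each of the 10 libraries, with 0 for unstimulated and A to D for stimulated libraries, KO being the knockout label and the black line the division between them. Hk2 goes from at most 30.3% to at least 65.5% and Pfkp from at most 56.3% to at least 75.9%, while in the pyruvate carrier the share of Mpc1 is higher in all 4 stimulated libraries labelled knockout than in the 4 wild-type ones.

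The pentose phosphate branch, which leaves glycolysis at glucose 6-phosphate to make NADPH and ribose, began with genes that were not called. G6pdx, its first enzyme, read 18.7 and 19.7 FPKM before and 13.2 to 16.4 FPKM after, and Pgd, its second dehydrogenase, 35.1 and 39.1 FPKM before and 46.0 to 50.1 FPKM after. Their changes were -0.36 and 0.36, in opposite directions with all 8 stimulated libraries below and above both unstimulated ones respectively.

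Because Myc and hypoxia factors bind short motifs, the 250 bases before each annotated start were read from the RefSeq promoter table (build GRCm38.p6, the build mm10 of the submitters' processing notes) for the 34 genes it holds, in 50 windows. The windows of the 4 raised genes with a match are shown 5′ to 3′ on the gene's strand, with capitals on each match to CACGTG, an E-box that Myc and Max can bind, or to ACGTG, the core of a hypoxia response element, on either strand (CACGT being ACGTG read on the other strand, and each CACGTG holding ACGTG on both).
Ldha, chr7:46845554-46845803, plus strand: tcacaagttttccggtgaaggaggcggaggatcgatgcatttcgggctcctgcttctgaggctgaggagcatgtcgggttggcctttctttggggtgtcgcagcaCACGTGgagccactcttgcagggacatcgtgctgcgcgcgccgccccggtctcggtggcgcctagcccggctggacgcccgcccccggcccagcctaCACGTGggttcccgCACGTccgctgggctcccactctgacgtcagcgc
Slc16a1, chr3:104638414-104638663, plus strand: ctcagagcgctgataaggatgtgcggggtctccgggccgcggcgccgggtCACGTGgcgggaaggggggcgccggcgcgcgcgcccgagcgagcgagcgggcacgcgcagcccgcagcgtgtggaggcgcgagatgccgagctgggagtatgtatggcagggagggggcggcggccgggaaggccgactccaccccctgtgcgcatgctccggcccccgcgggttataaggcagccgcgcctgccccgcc
Hk2, chr6:82774455-82774704, minus strand: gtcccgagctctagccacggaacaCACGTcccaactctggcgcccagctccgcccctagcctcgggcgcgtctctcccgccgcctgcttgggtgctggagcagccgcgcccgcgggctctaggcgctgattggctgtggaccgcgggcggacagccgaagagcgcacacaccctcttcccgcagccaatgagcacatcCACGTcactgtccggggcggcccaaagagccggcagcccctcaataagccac
Pgam1, chr19:41911621-41911870, plus strand: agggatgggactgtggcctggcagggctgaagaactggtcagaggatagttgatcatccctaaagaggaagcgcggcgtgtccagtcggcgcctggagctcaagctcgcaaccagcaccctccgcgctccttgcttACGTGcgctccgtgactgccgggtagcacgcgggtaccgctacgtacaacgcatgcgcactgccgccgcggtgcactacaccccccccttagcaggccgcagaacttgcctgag

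The E-boxes of Ldha begin 145 and 48 bases before the start, and that of Slc16a1 begins 200 bases before it. Hk2 held only the ACGTG core, at 226 and 52 bases, as did Pgam1, at 114 bases, and neither motif was found in the windows of Pfkp and Eno2. CACGTG occurred in 2 of 7 windows of the 6 raised genes (28.6%) and 5 of 50 windows of all members (10%), beside 6.02% of the 32851 windows of the table and 8.93% of those of tested genes. ACGTG occurred in 57.1%, 36%, 16.6% and 22.9% of them. Of the 34 genes, 15 held a match to ACGTG and 5 to CACGTG. E-boxes also stood in windows of Pdk2, Pfkm and Pfkfb3, which were not among the raised genes. The other window of Ldha held neither motif. All matches describe letters in the window and say nothing of what was bound, and no test was run on them.

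The second comparison, the replicated one of this series, asked which of these transcripts differ between the genotypes after anti-IgM. Libraries labelled knockout had lower levels of both subunits of the mitochondrial pyruvate carrier, Mpc2 and Mpc1, and of Tpi1, G6pdx, Eno3, Gapdh, Pgam1 and Slc2a1, and a slightly higher level of Pgk1. Of the 30 genes, limma over the 8 stimulated libraries called 8 lower at an adjusted p under 0.05, beside 5.81% of all 10225 genes, and 1 higher, beside 3.91%. The 4 and 4 libraries did not overlap for 16 of the 30, 15 with the knockout label below and 1 above, beside 9.57% and 5.96% of all genes, and 7 of these 16 did not pass the test. The median difference was -0.09 over the 30 and -0.02 over all genes on the log2 scale, and 25 of the 30 differences were negative. Under median-of-ratios scaling, 6 were called lower and 1 higher, beside 3.69% and 5.47% of all genes, with 19 negative and medians of -0.05 and 0.02, while the split over all genes turned from 400 higher and 594 lower to 559 and 377. Only Mpc2, Mpc1, Tpi1 and G6pdx were called in all 22 other fits.

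**Figure D4:**
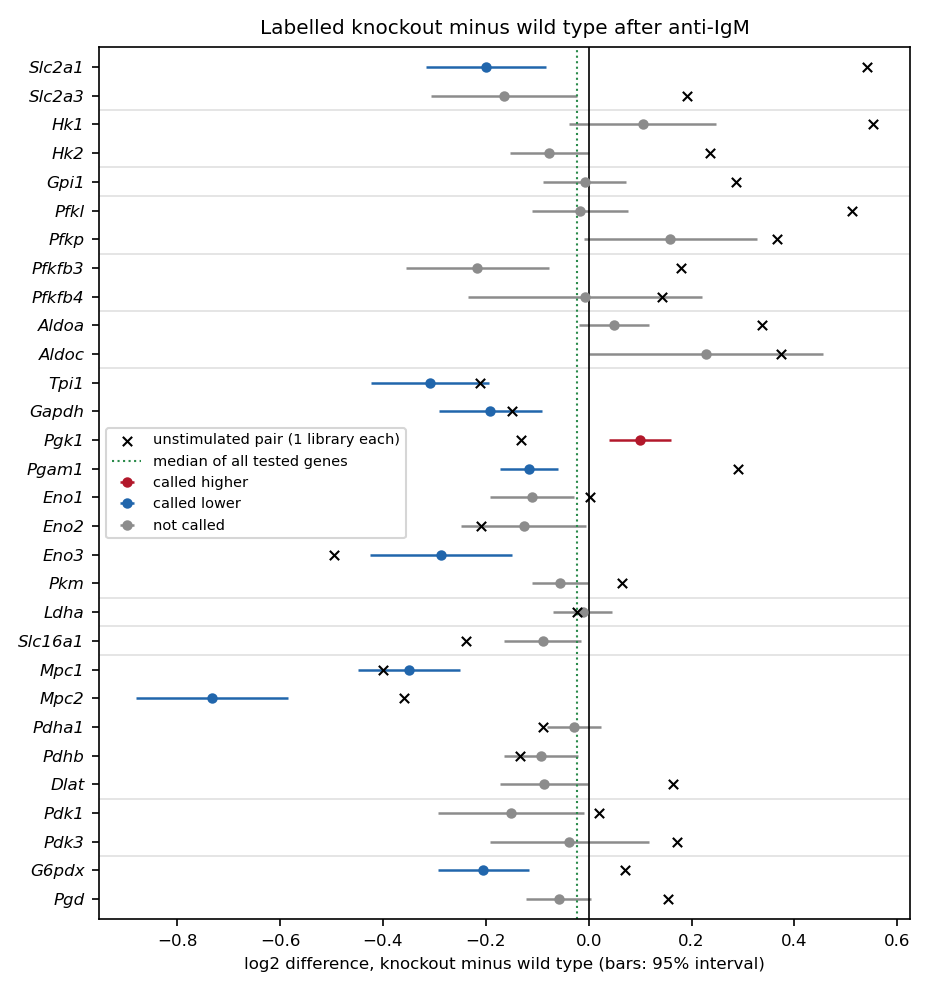
log2 difference on the log2(FPKM + 1) scale of the 30 tested genes, libraries labelled knockout minus wild type over 4 and 4 stimulated libraries, with 95% intervals; crosses give the same difference in the unstimulated pair, 1 library each, and the green dotted line the median of all genes. Mpc2 lies lowest at -0.73, and the crosses of 19 genes lie above 0.

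The mitochondrial pyruvate carrier is a complex of both Mpc1 and Mpc2 in the inner membrane, and it held the largest differences. Mpc2 read 30.0, 31.2, 26.6 and 32.7 FPKM in wild type (libraries A to D) and 19.1, 17.7, 16.3 and 17.8 FPKM in those labelled knockout. The groups did not overlap, the mean of the latter was 58.8% of wild type, and the difference was -0.73 ± 0.07 (log2 ± SE, adjusted p = 0.000132; -0.63 to -0.79 over the other fits). Mpc1 read 99.4, 111, 114 and 112 FPKM in wild type and 88.2, 83.0, 84.1 and 86.9 FPKM under the knockout label, 78.2% of wild type, a difference of -0.35 ± 0.04 (adjusted p = 0.00093). The unstimulated pair was in the same order, at 25.7 against 19.8 FPKM for Mpc2 (77.1%) and 141 against 106.9 FPKM for Mpc1 (75.7%), with 1 library each and no test. Mpc1 made up 76.8% to 81.1% of the pair in stimulated wild type and 82.2% to 83.7% under the knockout label, the only one of 11 families in which shares did not overlap between the labels. Without stimulation its share was 84.6% in wild type and 84.4% under the knockout label.

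**Figure D5:**
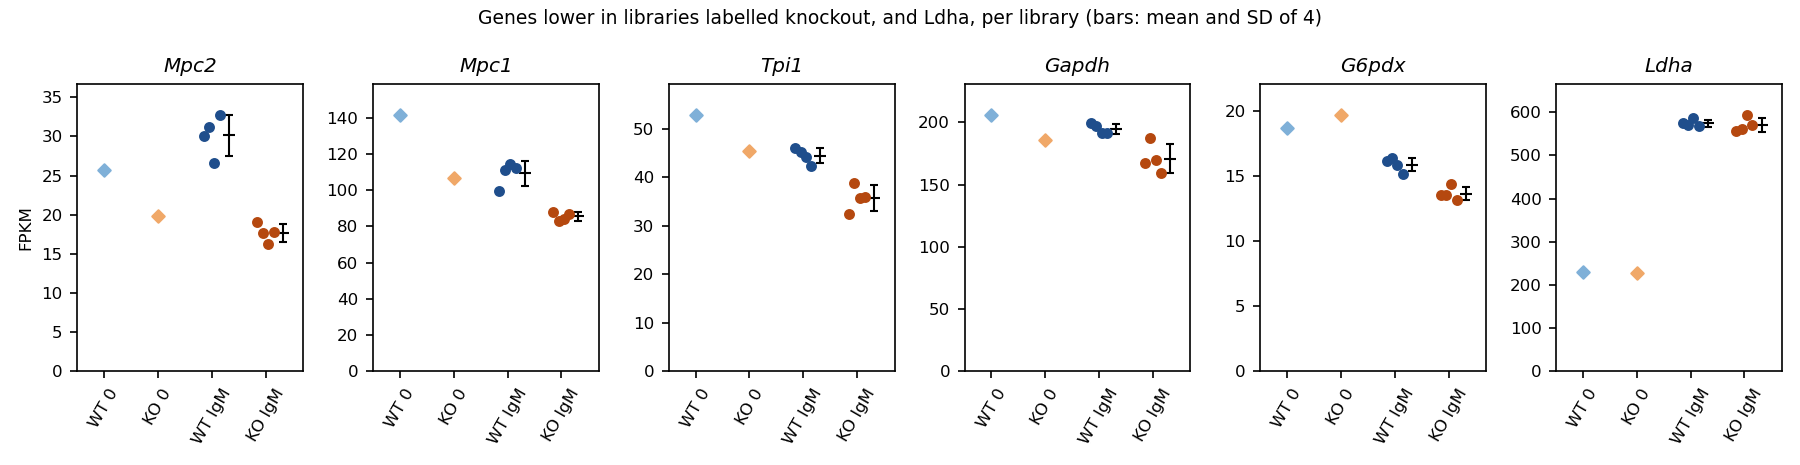
FPKM per library (linear axes from 0) of 5 genes lower in libraries labelled knockout and of Ldha, with unstimulated libraries (WT 0, KO 0) as diamonds, the 4 stimulated libraries of each label as circles, and bars for the mean and SD of those 4. The stimulated groups do not overlap for Mpc2, Mpc1, Tpi1, Gapdh and G6pdx, and overlap for Ldha at 567 to 586 and 557 to 593 FPKM.

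At pyruvate dehydrogenase and its kinases, the members downstream of the carrier, no difference was called. Pdha1 was 37.3 ± 0.471 FPKM in wild type and 36.5 ± 0.213 FPKM under the knockout label (SD, n = 4 each), Pdhb 42.8 ± 1.41 and 40.1 ± 1.07 FPKM, and Dlat 10.5 ± 0.265 and 9.81 ± 0.268 FPKM. None of the 3 was called. The 95% intervals of the log2 difference were -0.08 to 0.02 (Pdha1), -0.16 to -0.02 (Pdhb) and -0.17 to -0.0016 (Dlat). All 4 libraries labelled knockout were below all wild-type ones for Pdha1 and Dlat, while those of Pdhb overlapped. Pdk1 stood at 3.35 ± 0.306 and 2.91 ± 0.0888 FPKM without overlap and was not called either (adjusted p = 0.200), nor was Pdk3.

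Between triose phosphates and pyruvate, 4 of 8 genes were called lower and 1 higher, beside 5.81% and 3.91% of all genes, and of these 5 only Tpi1 was called in all 22 other fits. Tpi1 read 46.1, 45.1, 44.2 and 42.4 FPKM in wild type and 32.5, 38.9, 35.7 and 36.0 FPKM under the knockout label, a difference of -0.31 ± 0.05 (adjusted p = 0.00448). Gapdh, the next enzyme, read 199, 197, 192 and 191 FPKM against 167, 187, 169.7 and 159.2 FPKM, a difference of -0.19 ± 0.04 (adjusted p = 0.0256). The groups did not overlap for either gene, and Gapdh was called in 13 of the 22 other fits. Leaving out any 1 library other than B labelled knockout took its adjusted p to between 0.0522 and 0.0709. Pgk1, which acts directly after Gapdh, went the other way at 107.5, 108, 104 and 104 FPKM against 113, 111, 118 and 112 FPKM. Its difference of 0.10 ± 0.03 (adjusted p = 0.0484) held in 9 of 22 other fits and was lost when any single library was left out (adjusted p from 0.0540 to 0.119).

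Pgam1 was 208.5 ± 4.09 FPKM in wild type and 192 ± 4.66 FPKM under the knockout label (SD, n = 4 each; log2 difference -0.12, adjusted p = 0.0177, called in 17 of 22 other fits). The enolase Eno3 was 8.10 ± 0.736 and 6.44 ± 0.0963 FPKM (-0.29, adjusted p = 0.0177, called in 18 of 22). The call for Pgam1 was lost without wild-type library C (adjusted p = 0.0524) or library A labelled knockout (0.0514), and that for Eno3 without wild-type library A, C or D (0.0525 to 0.0578). Eno1 was 127 ± 4.10 and 117.6 ± 5.32 FPKM and Eno2 5.01 ± 0.255 and 4.51 ± 0.224 FPKM. Pkm was 157 ± 4.06 and 151 ± 2.23 FPKM. None of these was called, though Eno1 was without library C labelled knockout (adjusted p = 0.0342) and Pkm was with quantile scaling (0.0477). The libraries did not overlap between the labels for Eno2 and Pkm, and overlapped for Eno1. RNA of Eno1 may be shared with its near-identical copy Eno1b, listed at 3.27 to 6.74 FPKM, and processed copies of Gapdh, Pgk1, Ldha and other abundant members are common in the mouse genome, so their small differences are uncertain.

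At the entry of glucose and of the pentose branch, 1 gene each was lower. Slc2a1 was 13.3 ± 0.498 FPKM in wild type and 11.4 ± 0.765 FPKM under the knockout label (SD, n = 4 each), without overlap, a log2 difference of -0.20 ± 0.05 (adjusted p = 0.0408) that held in 10 of 22 other fits and was lost without any 1 wild-type library or library B or D labelled knockout (adjusted p from 0.0578 to 0.109). G6pdx read 16.2, 16.4, 15.9 and 15.2 FPKM against 13.5, 13.5, 14.4 and 13.2 FPKM, a difference of -0.20 ± 0.04 (adjusted p = 0.0104). Its successor Pgd was 49.0 ± 1.30 and 47.0 ± 0.974 FPKM and was not called.

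Of the genes called higher with anti-IgM other than Pgam1, none was called by label. Ldha was 575 ± 8.21 and 570.2 ± 16.2 FPKM (SD, n = 4 each), a log2 difference of -0.01 with a 95% interval from -0.07 to 0.04 and a sign that turned to 0.03 under median-of-ratios and 0.02 under quantile scaling. Hk2, with -0.08 and an interval from -0.15 to -0.0003, and Slc16a1, with -0.09 and an interval from -0.16 to -0.01, did not overlap between the labels and were not called. Pfkp, at 49.1 ± 3.52 and 55.1 ± 5.98 FPKM, had an interval from -0.01 to 0.33, and Pfkfb3, at 18.6 ± 1.18 and 15.8 ± 1.22 FPKM, missed the threshold (-0.22, adjusted p = 0.0603) while 5 of the 22 other fits called it, those without wild-type library C (adjusted p = 0.0362) and library B labelled knockout (0.0473) among them. The remaining tested genes, Slc2a3, Hk1, Gpi1, Pfkl, Pfkfb4, Aldoa, Aldoc, Pgd and Pdk3, were not called, and their libraries overlapped between the labels. Among the untested, Slc16a3 was at 0.29 to 0.61 FPKM in wild type and 0.08 to 0.25 FPKM under the knockout label.

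Several measures moved with the labels beside these genes. In the unstimulated pair, 19 of the 30 genes were higher and 11 lower under the knockout label, with a median difference of 0.11 on the log2 scale against 0.07 over all genes, whose SD was 0.38. That pair also differed by transcript length: the median difference was -0.24 for transcripts under 1 kb, 0.0041 from 1 to 2 kb, 0.09 from 2 to 4 kb and 0.13 at 4 kb and over. After anti-IgM the same medians were -0.05, -0.03, -0.02 and -0.02. Mpc1 and Mpc2 are short, at 961 and 1025 bases in the annotation used here, and with the trend on length taken out of each library, an analysis added after seeing the data, 7 of the 30 were called lower and 1 higher, beside 5.14% and 5.50% of all genes, with Mpc1 and Mpc2 among the lower. Of the marker lists, the T cell list summed to 46.0 to 50.1 FPKM in stimulated wild type and 66.1 to 69.0 FPKM under the knockout label. Lck alone made 43.7 to 48.1 and 64.4 to 66.9 FPKM of this, while none of the other 7 T cell markers exceeded 1.95 FPKM and Cd3d and Cd3e were listed at 0 in at least 1 library. The myeloid list ran from 138 to 245 FPKM and 108 to 180.2 FPKM, the erythroid list from 13.3 to 66.8 and 7.84 to 38.2 FPKM, and the platelet list from 7.52 to 11.5 and 4.09 to 7.65 FPKM. The plasma cell list summed to 1046 to 1111 FPKM in stimulated wild type and 1132 to 1191 FPKM under the knockout label, without overlap. Irf4 made 969.6 to 1040 and 1055 to 1113 FPKM of this, and its difference was not called. The part of these lists in the differences was not tested.

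Whether the response itself differed by label was examined with an interaction contrast over the 10 libraries, added after seeing the values, in which each lone unstimulated library is assumed to vary like the stimulated ones. That assumption has no replicate to check it, and the differences of the unstimulated pair had the SD of 0.38 over all genes given above, so the calls are a description of these libraries. In 26 of the 30 genes both labels moved the same way. The contrast called a more negative change under the knockout label for 7 genes, Slc2a1 (-0.74), Pfkl (-0.53), Pgam1 (-0.41), Hk2 (-0.31), Gpi1 (-0.29), Aldoa (-0.29) and Pgd (-0.21), beside 14.7% of all genes, and a more positive one for Pgk1 (0.23), beside 4.18%. The count depended on the scaling, at 16 lower and 0 higher with TPM (beside 33.8% and 1.73% of all genes), 3 and 1 with median-of-ratios (8.30% and 4.33%) and 4 and 1 with the length trend removed (7.26% and 5.71%). Hk2, Gpi1 and Pgd were not called under median-of-ratios scaling or with the length trend removed, nor Aldoa under the former or Pgk1 with TPM.

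Of the listed regulators of glycolytic transcription and glucose uptake, 11 of 16 were tested, with 2 called higher and 2 lower on anti-IgM and 1 lower under the knockout label, beside 7.94%, 12.4% and 5.81% of all genes. Myc read 61.5 and 88.9 FPKM without stimulation, 683 to 740.3 FPKM in stimulated wild type and 758 to 827 FPKM under the knockout label, a rise of 3.33 ± 0.08 (adjusted p = 4.82e-11). The labels did not overlap for Myc and the difference of 0.12 was not called (adjusted p = 0.0610). Irf4, a B cell transcription factor, rose by 3.11. Txnip, which restrains glucose uptake, fell from 134 and 166.9 FPKM to between 40.5 and 46.3 FPKM, a change of -1.78 ± 0.07 (adjusted p = 1.45e-09), and Mlx, a partner of the glucose-sensing Mondo factors, changed by -1.03. Hif1a, the oxygen-regulated subunit, stood at 35.7 to 41.7 FPKM in all libraries with a change of -0.08 (adjusted p = 0.107). Esrra, a nuclear receptor that acts on mitochondrial genes, was lower under the knockout label by 0.18 on the log2 scale, at 14.2 ± 0.647 and 12.5 ± 0.660 FPKM (SD, n = 4 each; adjusted p = 0.0484).

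Neighbouring pathways were read from further lists, whose counts stand beside 7.94% higher and 12.4% lower with anti-IgM and 3.91% higher and 5.81% lower by label over all genes. Of 8 tested isoenzymes and side steps of glycolysis, 1 fell with anti-IgM, the bisphosphoglycerate mutase Bpgm (-1.31), and 2 differed by label, the mitochondrial glycerol phosphate dehydrogenase Gpd2 (20.8 ± 1.11 against 24.4 ± 1.16 FPKM, 0.22, adjusted p = 0.0183) and the fructose bisphosphatase gene 9630033F20Rik, also named Tigar (-0.20, adjusted p = 0.0206). None of the 3 tested further carriers and none of the 7 tested partners of pyruvate dehydrogenase was called in either comparison. In the rest of the pentose phosphate pathway, 1 of 8 rose with anti-IgM, the ribose phosphate synthetase Prps1 (1.05), and Prps2 was lower under the knockout label (-0.18, adjusted p = 0.0264). In the citrate cycle, 1 of 20 fell with anti-IgM, the cytosolic isocitrate dehydrogenase Idh1 (-1.33), and 2 of 20 were lower under the knockout label, the cytosolic malate dehydrogenase Mdh1 (73.0 ± 3.25 against 59.98 ± 1.58 FPKM, -0.28, adjusted p = 0.00093) and the citrate synthase Cs (-0.10, adjusted p = 0.0301). The median response of the 20 citrate cycle genes was -0.28 and that of all genes -0.17 on the log2 scale, and their median difference by label was -0.05 against -0.02.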

How the data were processed

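Values are the FPKM that the authors deposited, 1 per gene (17658) and library (10). The submitters' processing notes name STAR 2.4, RSEM 1.2.14 and the build mm10, and a stranded mRNA kit was used per the labels. The gene annotation, filters and strand setting are not given in the sources used here, so overlapping genes and near-identical copies may share reads. FPKM are not counts, so no count model was fitted, and the absolute depth is unknown.

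Values were transformed as log2(FPKM + 1). Genes averaging 1 FPKM or more across libraries entered limma 3.58.1 in R 4.3.3 (lmFit, eBayes with intensity trend, two-sided, Benjamini-Hochberg over all 10225 genes). The response used all 10 libraries with genotype as a term. The genotype comparison used the 8 stimulated libraries without the letter as a block. The fit was tested on simulated data in which a small set of genes changed and every library varied like the stimulated ones. That test therefore could not check the response against the unknown spread of unstimulated libraries. Alternatives were a pseudocount of 0.1 or 5, a filter at 5 FPKM or none, TPM, median-of-ratios and quantile scaling, leaving out immunoglobulin genes, no trend, robust estimation, array weights, the letter as a block, all 10 libraries in the genotype fit, each library left out, and, added after seeing the data, removal of a trend on transcript length (GENCODE M21, found for 91.2% of genes) and the interaction contrast. The immunoglobulin genes left out were 4 rows that held 0.117% to 0.274% of the summed FPKM. That fit also scales by library sums, and by genotype it called 381 genes higher and 476 lower, as TPM did. It therefore nearly repeats TPM and is no separate check on immunoglobulin RNA. Promoter windows came from RefSeq (GRCm38.p6). On the strand the table gives, 43 of 50 matched a transcript start of the annotation.

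The genes named are all 35 members, Nr4a1, Myc, Hif1a, Txnip and, from each further list, up to 4 called genes with the largest change. The marker genes Lck, Lyz2, Cd79a, Ms4a1, Cd3d and Cd3e, the copy Eno1b, the carrier Slc2a6 and Pfkfb2 were named after their values were seen. The members and lists were chosen with earlier results of these data known. Samples were grouped by title and genotype label.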

Additional observations from a re-analysis of the deposited data

Results flagged for a closer look

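In groups of 4 stimulated libraries, 3 values stood far from the other 3 of their group: Eno2 in library C labelled knockout (4.17 FPKM, others 4.59 to 4.64), Eno3 in wild-type library B (7 FPKM, others 8.38 to 8.52) and Slc16a1 in wild-type library C (59.31 FPKM, others 55.25 to 55.66). With 60 groups examined, chance flags about 1 in 20, which is 3.

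The response to anti-IgM went in opposite directions under the 2 labels for Slc2a1 (difference -0.74 on the log2 scale), Pfkl (-0.53), Pfkfb3 (-0.40) and Mpc2 (-0.37), with every stimulated wild-type library above its unstimulated library and every one labelled knockout below its own. The interaction contrast gave adjusted p = 0.00394 for Slc2a1, 0.00556 for Pfkl, 0.0760 for Pfkfb3 and 0.110 for Mpc2. It also passed for Hk2 (-0.31), Gpi1 (-0.29), Aldoa (-0.29), Pgk1 (0.23), Pgam1 (-0.41) and Pgd (-0.21), where both labels moved the same way. All of these rest on 1 unstimulated library per label. With the length trend removed, the contrast was -0.63 for Slc2a1 (adjusted p = 0.0112), -0.41 for Pfkl (0.0311), -0.34 for Pgam1 (0.0128), -0.25 for Aldoa (0.0367) and 0.30 for Pgk1 (0.0182), and it did not pass for Hk2 (-0.17, 0.165), Gpi1 (-0.19, 0.170) and Pgd (-0.12, 0.282). Under median-of-ratios scaling Hk2 (0.0654), Gpi1 (0.125), Pgd (0.223) and Aldoa (0.0903) did not pass, and with TPM Pgk1 (0.481) did not.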

How the results depend on the processing

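The 6 members called higher with anti-IgM stayed 6 in all other fits except the pseudocount of 5 and the mean of at least 5 FPKM, which gave 5, and became 11 by adjusted p alone. The 2 called lower became 14 by adjusted p alone, 3 with no filter, where Pdk2 was tested too, 0 with a pseudocount of 5 or a mean of at least 5 FPKM, and 1 with TPM, median-of-ratios, quantile scaling, immunoglobulin genes left out, the length trend removed or the replicate block, and ranged from 1 to 2 with single libraries left out. By genotype, the 1 called higher (Pgk1) became 0 with no filter, quantile scaling, no trend, robust estimation and each of the 8 libraries left out (0 to 0), and the 8 called lower ranged from 5 to 8 with single libraries left out. Between stimulated libraries of the 2 labels, same-letter correlations of deviations were -0.02, 0.04, 0.0075 and -0.12 for A to D. Those of unlike letters ran from -0.09 to 0.12. The unstimulated libraries were not part of this check, so it does not settle what the letters mean. With the letter as a replicate block, 740 genes in all were called by genotype against 994, and 1 member higher (Pfkp, adjusted p = 0.0382, in place of Pgk1, 0.133) and 8 lower. The cause of these shifts was not tested. Changes with anti-IgM whose sign turned were those of Slc2a1 (-0.29), Pfkl (-0.19) and Mpc2 (-0.16) without the wild-type unstimulated library (up to 0.46, 0.34 and 0.22 with others left out), Hk1 (quantile 0.021), Eno1 (0.0035) and Pdhb (0.0088) with median-of-ratios, Gapdh (TPM 0.064, median-of-ratios 0.14, without immunoglobulin genes 0.062, length 0.10), Pdha1 (0.047, 0.12, 0.045 and 0.015 in the same order) and Pfkfb3 (0.15, 0.22, 0.15 and 0.14 in that order, quantile 0.13, array weights 0.0011, replicate block 0.040, and -0.20 to 0.20 with single libraries left out). Genotype differences whose sign turned were those of Gpi1 (median-of-ratios 0.035, length 0.015, and -0.033 to 0.013 with a library left out), Pfkl (0.024 and 0.00158, quantile 0.023, -0.035 to 0.013), Pfkfb4 (0.020 and 0.013, quantile 0.032, -0.074 to 0.046), Ldha (0.032 and 0.016, quantile 0.017), Pdha1 (median-of-ratios 0.014) and Pdk3 (0.0017, quantile 0.00441, -0.098 to 0.018), none of them called. FPKM without read totals limit what can be said of genes near 1 FPKM.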
